A study of Mus musculus with 12 samples.

Results

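The genes described here make non-essential amino acids or carry amino acids across the plasma membrane. They were set by name, with earlier results of these data known, as Asns, Gpt2, Aldh18a1, Pycr1, Slc7a11, Slc7a3, Slc7a5, Slc3a2, Slc7a1 and Slc38a2. A probe annotated to 1 of these 10 symbols was taken if it outshone the negative control probes by the scanner software's detection score, at a level above 0.95, on 3 or more of the 12 arrays. This gave 11 probes of 6 genes, among 12023 probes that met the same rule and 45281 on the array. Asns and Slc7a11 had 3 probes each, Slc38a2 had 2, and Gpt2, Aldh18a1 and Slc7a3 had 1 each, and no annotated probe of these genes failed the rule. Pycr1, Slc7a5, Slc3a2 and Slc7a1 had no probe in the annotation used here and have no values.

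RNA was taken from the microdissected hypertrophic zone of the tibial growth plate of 2 week old mice of mixed background, 1 growth plate per mouse, amplified linearly and read on Illumina MouseWG-6 v2 arrays, with 3 arrays for each of 4 genotypes. C/X mice carried both of the following changes. ColXN617K mice carried a knock-in of collagen X with an asparagine to lysine change, a model of metaphyseal chondrodysplasia type Schmid in which hypertrophic chondrocytes hold the misfolded collagen in their endoplasmic reticulum. Xbp1CartΔEx2 mice lacked exon 2 of Xbp1 through a Cre recombinase that acts in cells expressing Col2a1, so other cells of the zone kept the gene. Wildtype (Wt) mice carried neither change. The comparisons ask whether the mutant collagen changes these genes with and without XBP1, and whether loss of XBP1 changes them by itself.

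Cells in which misfolded protein builds up in the endoplasmic reticulum run several signalling arms. In one, IRE1 splices Xbp1 mRNA to make an active transcription factor. In another, PERK phosphorylates the initiation factor eIF2α, which slows protein synthesis in general but raises translation of the transcription factor ATF4. ATF4 also acts downstream of the amino acid sensor GCN2, and its known targets include asparagine synthetase (Asns), the cystine carrier Slc7a11 and other genes that supply amino acids and aminoacyl-tRNAs for protein synthesis. Hypertrophic chondrocytes make large amounts of matrix protein and so have a high demand for amino acids, proline and glycine above all for collagen.

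Values are log2 intensities after background correction and quantile normalization, and a probe passed the test at a fold difference of at least 2 with an adjusted p of 0.01 or less. Between 17.1% and 28.4% of probes were above background on an array. ColXN617K replicate 3 and C/X replicate 3 had the lowest shares of their genotypes, at 17.1% and 17.2%. The wildtype arrays were all as low, at 17.3% to 17.7%. The Xbp1CartΔEx2 arrays were at 19.6% to 23.1%, and the other C/X and ColXN617K arrays at 23.2% to 28.4%. Replicates 2 and 3 correlated least among the arrays of ColXN617K (0.867) and of C/X (0.915). All 6 cartilage markers and all 5 measured hypertrophic markers were above background on at least 1 array of each genotype. The cartilage markers summed, on the linear scale, to 51930 to 64092 in C/X and 61006 to 79538 in ColXN617K. They summed to 73805 to 81950 in Xbp1CartΔEx2 and 78213 to 82548 in wildtype. The summed linear level of the hypertrophic markers was 23488 to 28896 in C/X and 10126 to 17403 in ColXN617K, against 48443 to 60418 in Xbp1CartΔEx2 and 49220 to 53048 in wildtype. Their defining member, Col10a1, fell by 3.08 in C/X and fell by 3.17 in ColXN617K against wildtype on the log2 scale. Summed markers of other cells were lower in C/X and ColXN617K than in wildtype too, and the erythroid markers were also lower in Xbp1CartΔEx2. The 8 measured endothelial markers of 12 listed summed to 950 to 3425 in C/X, 999 to 1190 in ColXN617K, 14739 to 26912 in Xbp1CartΔEx2 and 6272 to 15124 in wildtype, and Cdh5 was not above background on any C/X or ColXN617K array, nor Pecam1 on any array but those of Xbp1CartΔEx2. The 4 measured erythroid markers of 6 summed to 1426 to 2820, 2112 to 7708, 4962 to 6151 and 16057 to 26595 in the same order of genotypes. The 4 measured bone markers of 6 summed to 1367 to 2212, 1394 to 2038, 8106 to 14049 and 4676 to 7878. The 5 measured osteoclast and macrophage markers of 6 summed to 8162 to 22241, 6158 to 10333, 31326 to 36964 and 24204 to 33961. The part of these shifts in the results below was not tested, and in such tissue a lower share of a cell type and less RNA per cell cannot be told apart. The position of the Xbp1 probe relative to exon 2 is not known, so its level does not check the deletion.

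In both genotypes with mutant collagen X, 5 of the 6 measured genes rose on at least 1 probe and the sixth, Slc38a2, fell on 1 of its 2 probes. In C/X against wildtype 6 of the 11 probes were higher and 1 was lower, where 6.52% of all 12023 probes were higher and 5.21% lower. In ColXN617K against wildtype 6 were again higher and 1 lower, where 7.31% of all probes were higher and 7.16% lower. In C/X against Xbp1CartΔEx2, the comparison of collagen X genotypes without XBP1, 6 were higher and 0 lower, where 6.06% of all probes were higher and 7.60% lower. The median log2 difference of the 11 probes was 1.21, 1.56 and 1.86 in these comparisons, against 0.02, 0.00144 and 0.05 over all probes. No probe passed in Xbp1CartΔEx2 against wildtype (0 of 11, where 1.76% of all probes passed), in C/X against ColXN617K (0 of 11, where 5.26% passed) or in the interaction of both alleles (0 of 11, where 1.71% passed). At an unadjusted p below 0.05 the counts in these last 3 comparisons were 3, 5 and 1, where 22.9%, 29.2% and 24.1% of all probes were below it. Of the first 3 comparisons, C/X against wildtype shares arrays with each of the others, so it is not a separate sample of the same effect. ColXN617K against wildtype and C/X against Xbp1CartΔEx2 have no array in common, though limma pooled the spread over all genotypes. Scaling by array medians in place of quantile normalization left 3 higher probes in C/X against wildtype and 3 in C/X against Xbp1CartΔEx2, those of Gpt2, Slc7a3 and Slc7a11, and 5 in ColXN617K against wildtype, with 0 lower in each. The log2 differences of the Asns probes ILMN_2643513 and ILMN_3006123 and of Aldh18a1, whose C/X calls were lost, were 2.14, 1.81 and 2.68 against wildtype (adjusted p = 0.0432, 0.0269 and 0.0324) and 2.50, 1.87 and 2.51 against Xbp1CartΔEx2 (adjusted p = 0.0220, 0.0218 and 0.0418). In that setting the median of all probes was itself 0.40, 0.06 and 0.77 higher in these comparisons, and it gave 233 higher and 72 lower calls over all probes in C/X and 700 and 96 in ColXN617K against wildtype, where quantile normalization gave 784 and 626 in C/X and 879 and 861 in ColXN617K.

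**Figure D1:**
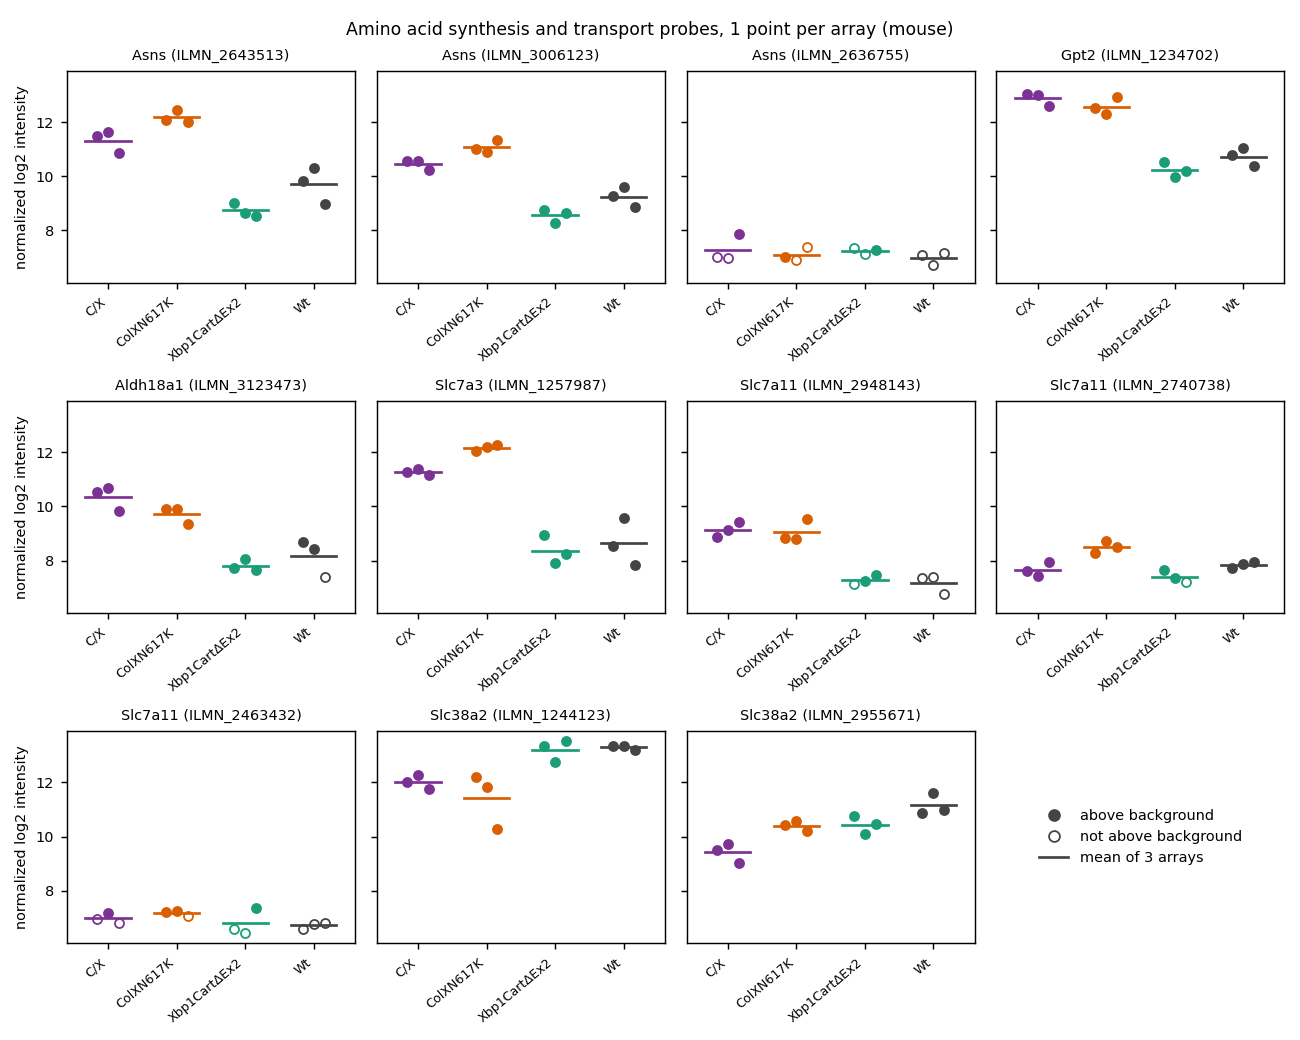
Normalized log2 intensity (y axis) of the 11 probes on each of the 12 arrays, 1 panel per probe, with C/X, ColXN617K, Xbp1CartΔEx2 and Wt from left to right. Filled points are above background on that array, open points are not, and the line is the mean of the 3 arrays. For Gpt2 the C/X and ColXN617K arrays lie between 12.29 and 13.05, above all Xbp1CartΔEx2 and Wt arrays (9.98 to 11.05).

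In 9 of the 11 probes the 3 C/X arrays did not overlap the 3 wildtype arrays, where 43.6% of all probes did not overlap. In ColXN617K against wildtype this held for 10 of 11 probes (40.8% of all), and in C/X against Xbp1CartΔEx2 for 8 of 11 (44.3%). It held for 3 of 11 in Xbp1CartΔEx2 against wildtype (36.7%) and for 5 of 11 in C/X against ColXN617K (30.1%).

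Promoter sequence from RefSeq (mouse build GRCm38.p6) was on hand for 8 of the 10 genes, as 250 bases before and 50 bases after each start, and was searched on both strands for the core of the C/EBP-ATF response element, TGATGNAA, to which ATF4 with a C/EBP partner binds. The core was found in Asns, Slc7a11 and Pycr1, and in 3.97% of all 32851 promoters in the table. It was not found in Gpt2, Aldh18a1, Slc38a2, Slc3a2 or either promoter of Slc7a1, which says only that these letters are not in this window. The core TGACGTG, which XBP1 binds, was in 0 of the 8 genes and in 2.01% of all promoters. The 120 bases before the start are shown for Asns (chr6:7693210-7693329, minus strand) and Slc7a11 (chr3:50443614-50443733, minus strand), the measured genes that hold the first core, which is in capitals. In Asns it begins 23 bases before the start, and in Slc7a11 it begins 66 bases before the start on the gene's strand and covers bases 47 to 40 before the start on the other strand, where it reads as its reverse complement.
Asns: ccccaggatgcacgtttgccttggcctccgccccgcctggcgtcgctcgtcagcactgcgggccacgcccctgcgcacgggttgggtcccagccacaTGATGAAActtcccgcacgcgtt
Slc7a11: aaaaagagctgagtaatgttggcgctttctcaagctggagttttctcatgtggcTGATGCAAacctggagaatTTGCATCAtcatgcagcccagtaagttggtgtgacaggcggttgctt

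Asns encodes asparagine synthetase, which makes asparagine from aspartate with nitrogen from glutamine. Its probe ILMN_2643513 read 11.48, 11.62 and 10.84 in C/X, 12.09, 12.44 and 12.01 in ColXN617K, 9.02, 8.65 and 8.54 in Xbp1CartΔEx2, and 9.83, 10.30 and 8.97 in wildtype. Every C/X and ColXN617K array was thus above every array with normal collagen X, and the ColXN617K arrays were above the C/X arrays. Asns rose 2.49 ± 0.32 (log2 difference ± SE) in ColXN617K against wildtype, a 5.60-fold difference (adjusted p = 0.000154), and 1.62 ± 0.32, or 3.07-fold, in C/X against wildtype (adjusted p = 0.00329). Against Xbp1CartΔEx2 it rose 2.58 ± 0.32 in C/X (adjusted p = 0.000132).

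The probe ILMN_3006123 of Asns had the same order of genotypes, with 10.58, 10.56 and 10.23 in C/X, 11.01, 10.91 and 11.35 in ColXN617K, 8.75, 8.26 and 8.64 in Xbp1CartΔEx2, and 9.27, 9.62 and 8.86 in wildtype. Its rise was 1.84 ± 0.24 in ColXN617K (adjusted p = 0.000145) and 1.21 ± 0.24 in C/X (adjusted p = 0.00305) against wildtype, and 1.90 ± 0.24 in C/X against Xbp1CartΔEx2 (adjusted p = 0.000128). The remaining Asns probe, ILMN_2636755, was above background on 3 of 12 arrays and ranged over 6.73 to 7.87 with overlapping genotypes, and its differences in the 5 pairwise comparisons lay between 0.05 and 0.30. Its place on the transcript is not given in the annotation used here. The C/X rise of Asns was close to the threshold on both good probes. Leaving out C/X replicate 1, C/X replicate 2, wildtype replicate 1 or wildtype replicate 3 took the adjusted p of ILMN_2643513 to 0.0179, 0.0177, 0.0108 and 0.0125, and that of ILMN_3006123 to 0.0174, 0.0150, 0.0119 and 0.0162, with log2 differences that stayed at 1.25 or more and at 1.01 or more.

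Gpt2 encodes the mitochondrial alanine aminotransferase, which passes an amino group between glutamate and pyruvate and so makes alanine. Its probe read 13.05, 13 and 12.61 in C/X, 12.51, 12.29 and 12.92 in ColXN617K, 10.53, 9.98 and 10.19 in Xbp1CartΔEx2, and 10.77, 11.05 and 10.37 in wildtype. The arrays formed 2 sets with no overlap, and within each set the genotypes overlapped. Gpt2 rose 2.16 ± 0.25 in C/X (4.47-fold, adjusted p = 8.82e-05) and 1.85 ± 0.25 in ColXN617K (3.59-fold, adjusted p = 0.000204) against wildtype. In C/X against Xbp1CartΔEx2 it rose 2.65 ± 0.25, or 6.29-fold (adjusted p = 1.92e-05). These 3 calls held in each alternative processing and with each array left out.

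Aldh18a1 encodes pyrroline carboxylate synthase, the first enzyme on the path from glutamate to proline, and Pycr1, which has no values here, encodes an enzyme of the last step of that path. Aldh18a1 read 10.55, 10.69 and 9.84 in C/X, 9.89, 9.90 and 9.36 in ColXN617K, 7.72, 8.07 and 7.66 in Xbp1CartΔEx2, and 8.68, 8.42 and 7.39 in wildtype. Wildtype replicate 3 was the 1 array on which it was not above background. Aldh18a1 rose 2.19 ± 0.34 in C/X (4.58-fold, adjusted p = 0.000609) and 1.56 ± 0.34 in ColXN617K (2.94-fold, adjusted p = 0.00435) against wildtype. It rose 2.54 ± 0.34 in C/X against Xbp1CartΔEx2 (adjusted p = 0.000185). The call in ColXN617K was lost without ColXN617K replicate 1, ColXN617K replicate 2 or wildtype replicate 3, where the log2 difference was 1.47, 1.47 and 1.17 with adjusted p = 0.0199, 0.0185 and 0.0166.

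**Figure D2:**
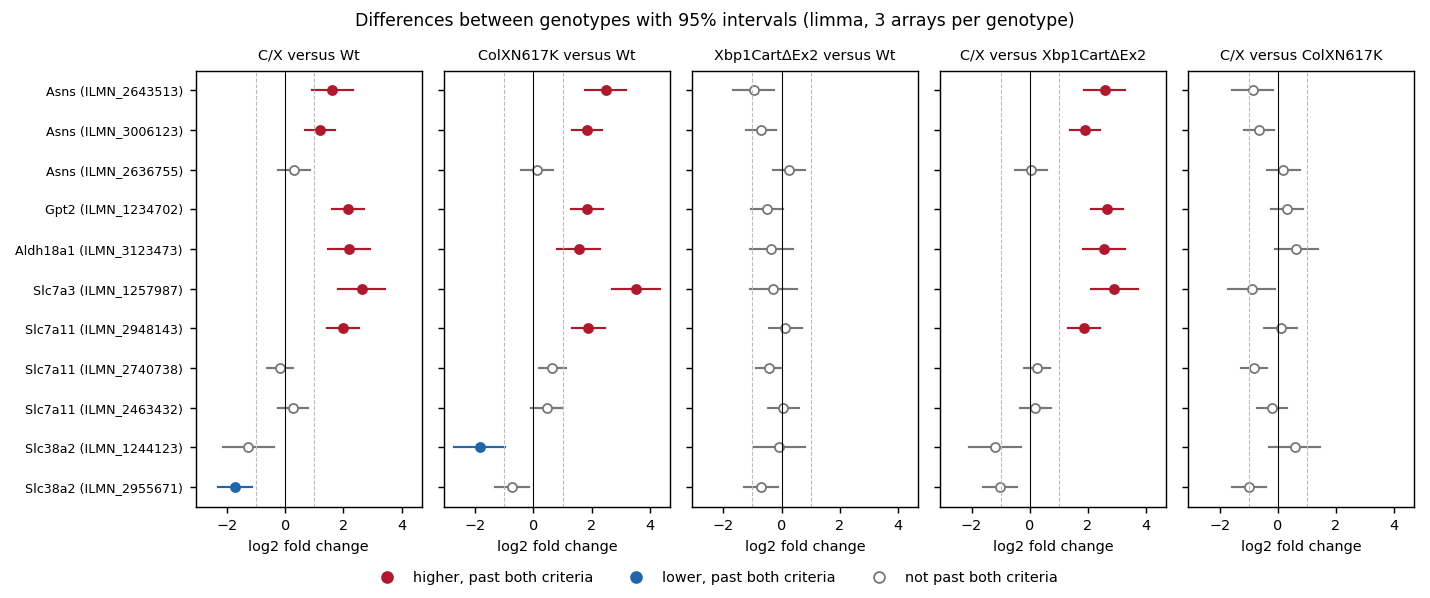
Log2 fold change (x axis) of each probe (y axis) in 5 comparisons, 1 panel each, the first named genotype over the second, with 95% intervals from limma. Filled red points were higher and filled blue points lower past both criteria, open points were not past them, dashed lines mark a fold of 2, and Slc7a11 ILMN_2948143 stands at its measured value although its wildtype level is a bound. In the panels of Xbp1CartΔEx2 against wildtype and C/X against ColXN617K no point is filled.

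Slc7a3 (CAT-3) carries the cationic amino acids arginine, lysine and ornithine. It read 11.28, 11.37 and 11.16 in C/X, 12.05, 12.20 and 12.27 in ColXN617K, 8.94, 7.89 and 8.24 in Xbp1CartΔEx2, and 8.54, 9.56 and 7.83 in wildtype. The 3 arrays of each collagen X mutant lay within 0.22 of each other, while the wildtype arrays spread over 1.74 and those of Xbp1CartΔEx2 over 1.05. Slc7a3 rose 3.53 ± 0.37 in ColXN617K (11.5-fold, adjusted p = 4.00e-05) and 2.62 ± 0.37 in C/X (6.16-fold, adjusted p = 0.000372) against wildtype, and 2.91 ± 0.37 in C/X against Xbp1CartΔEx2 (7.51-fold, adjusted p = 0.000157). The 3 calls held in each alternative processing and with each array left out.

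Slc7a11 (xCT) is the light chain of the exchanger that imports cystine and exports glutamate, and Slc3a2, its heavy chain, has no values here. Its probe ILMN_2948143 read 8.88, 9.12 and 9.44 in C/X, 8.82, 8.80 and 9.53 in ColXN617K, 7.13, 7.23 and 7.48 in Xbp1CartΔEx2, and 7.34, 7.38 and 6.76 in wildtype. It was above background on all 6 arrays with mutant collagen X, on 2 of 3 Xbp1CartΔEx2 arrays and on 0 of 3 wildtype arrays. The wildtype level is therefore only a bound, set on each array by the dimmest signal of a probe above background or by the probe's own signal if higher. Against this bound Slc7a11 was at least 2.83-fold higher in C/X (adjusted p = 0.000209) and at least 2.65-fold higher in ColXN617K (adjusted p = 0.000229). Here and below, an adjusted p beside a bound is that of the measured difference, and the bound itself was not tested. In C/X against Xbp1CartΔEx2 Slc7a11 rose 1.86 ± 0.26, or 3.64-fold (adjusted p = 0.000273). Without background correction these log2 differences were 0.94, 0.89 and 0.89, under the fold minimum.

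The other probes of Slc7a11 did not show this rise. ILMN_2740738, above background on 11 of 12 arrays, read 7.60, 7.44 and 7.94 in C/X, 8.26, 8.72 and 8.49 in ColXN617K, 7.66, 7.34 and 7.22 in Xbp1CartΔEx2, and 7.71, 7.88 and 7.93 in wildtype. Its ColXN617K arrays were above all others, but the difference from wildtype was 0.65 ± 0.21 (adjusted p = 0.0336) and that of C/X from wildtype was −0.18 ± 0.21 (95% interval −0.63 to 0.27, adjusted p = 0.565, and 0.25 with scaling by array medians). The interval for C/X (an upper limit under 2-fold) leaves out the bound of at least 2.83-fold given by ILMN_2948143, so the probes annotated to Slc7a11 disagreed in C/X. ILMN_2463432 was above background on 4 of 12 arrays and ranged over 6.42 to 7.38, with differences of 0.07 to 0.46 from wildtype. The annotation used here does not say which transcript each probe reads.

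Slc38a2 (SNAT2) takes up small neutral amino acids with sodium and is known as the carrier that cells raise when they are starved of amino acids. Its probe ILMN_1244123 read 12.02, 12.29 and 11.76 in C/X, 12.21, 11.83 and 10.29 in ColXN617K, 13.36, 12.74 and 13.54 in Xbp1CartΔEx2, and 13.34, 13.35 and 13.19 in wildtype. All 6 arrays with mutant collagen X were below all 6 others, and ColXN617K replicate 3 was lowest of all. It fell by 1.85 ± 0.40 in ColXN617K against wildtype (adjusted p = 0.00477). The difference of C/X was −1.27 ± 0.40 from wildtype (adjusted p = 0.0370) and −1.19 ± 0.40 from Xbp1CartΔEx2 (adjusted p = 0.0462), past the fold minimum but not the p threshold. Without ColXN617K replicate 3 the fall in ColXN617K was −1.27 (adjusted p = 0.00226), and both C/X differences then passed, with adjusted p = 0.00145 and 0.00193. Without wildtype replicate 1, 2 or 3 the ColXN617K call was lost, with adjusted p = 0.0193, 0.0163 and 0.0152.

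The probe ILMN_2955671 of Slc38a2 read 9.49, 9.74 and 9.01 in C/X, 10.44, 10.57 and 10.22 in ColXN617K, 10.75, 10.10 and 10.48 in Xbp1CartΔEx2, and 10.87, 11.60 and 10.97 in wildtype. Here the C/X arrays were the lowest and the ColXN617K arrays overlapped those of Xbp1CartΔEx2. It fell by 1.73 ± 0.27 in C/X against wildtype (adjusted p = 0.000633), a call lost with scaling by array medians (−1.30, adjusted p = 0.209). The difference of C/X from Xbp1CartΔEx2 was −1.03 ± 0.27 (adjusted p = 0.0127), past the fold minimum but not the p threshold. The difference of ColXN617K from wildtype was −0.74 ± 0.27 (adjusted p = 0.0529) and turned to 0.19 with scaling by array medians, a setting in which the median of all probes was itself 0.77 higher in ColXN617K. Both probes of Slc38a2 were thus lower in C/X and in ColXN617K than in wildtype under quantile normalization, but a different one passed in each genotype.

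**Figure D3:**
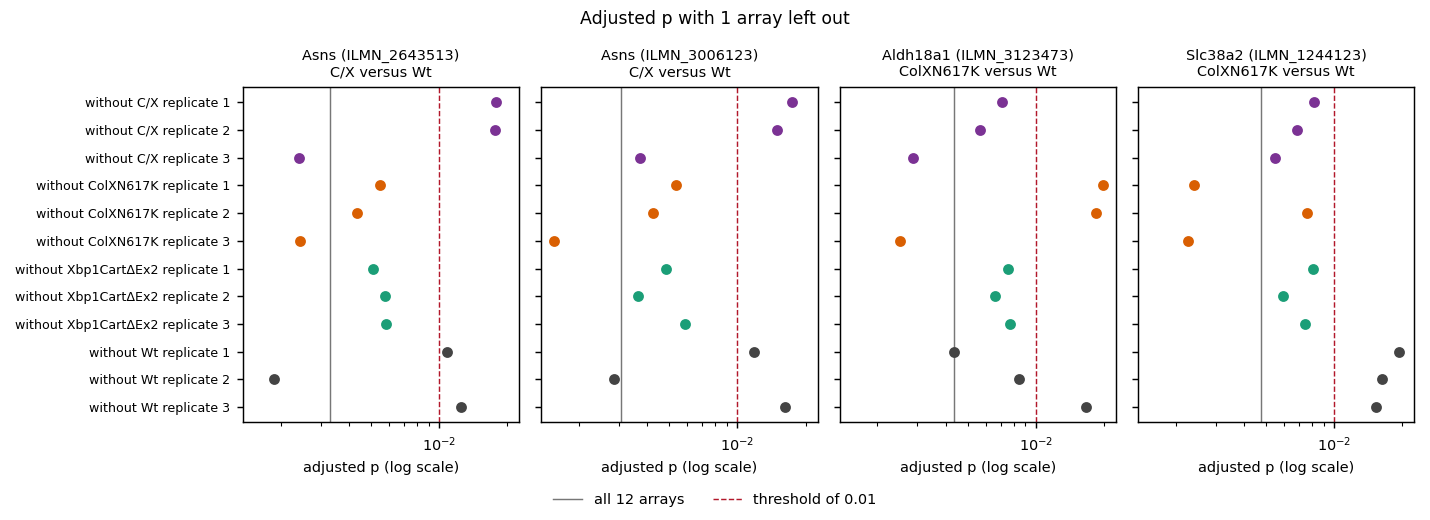
Adjusted p on a log scale (x axis) of 4 calls when each array in turn (y axis) is left out, coloured by the genotype of that array. The grey line is the value with all 12 arrays and the dashed line the threshold of 0.01, which Slc38a2 in ColXN617K crossed without any 1 of the wildtype arrays.

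Loss of XBP1 by itself was compared in mice without the collagen X mutation. In Xbp1CartΔEx2 against wildtype, 8 of the 11 log2 differences were negative and 3 positive, with a median of −0.35. The largest was that of Asns on ILMN_2643513, at −0.96 ± 0.32 (95% interval −1.66 to −0.26, adjusted p = 0.0977), and the Asns probe ILMN_3006123 gave −0.70 ± 0.24 (adjusted p = 0.101). With scaling by array medians these were −0.35 and −0.06, where the median of all probes was itself 0.34 higher. For Gpt2 the difference was −0.49 ± 0.25 (95% interval −1.03 to 0.05), for Aldh18a1 −0.35 ± 0.34 (−1.08 to 0.38) and for Slc7a3 −0.29 ± 0.37 (−1.10 to 0.53), and with scaling by array medians they were 0.05, 0.18 and 0.24, below the median of all probes in that setting. Slc38a2 differed by −0.70 ± 0.27 on ILMN_2955671 (95% interval −1.28 to −0.12, adjusted p = 0.136) and by −0.08 ± 0.40 on ILMN_1244123. On ILMN_2955671 every Xbp1CartΔEx2 array was below every wildtype array, and the difference was −0.24 with scaling by array medians. The intervals for Asns on ILMN_2643513 and ILMN_3006123, Gpt2, Aldh18a1, Slc7a3 and Slc38a2 on ILMN_2955671 include a 2-fold lower level.

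Loss of XBP1 in the presence of mutant collagen X was read from C/X against ColXN617K. Asns differed by −0.87 ± 0.32 on ILMN_2643513 (95% interval −1.57 to −0.16, adjusted p = 0.0925) and by −0.63 ± 0.24 on ILMN_3006123 (adjusted p = 0.0945), and Slc7a3 differed by −0.91 ± 0.37 (adjusted p = 0.127). On these 3 probes every C/X array was below every ColXN617K array. The differences with an adjusted p of 0.05 or less were those of Slc7a11 on ILMN_2740738 (−0.83 ± 0.21, adjusted p = 0.0199) and Slc38a2 on ILMN_2955671 (−0.99 ± 0.27, adjusted p = 0.0259), both short of the fold minimum. Gpt2 and Aldh18a1 differed by 0.32 ± 0.25 (−0.23 to 0.86) and 0.64 ± 0.34 (−0.09 to 1.37), and Gpt2 was −0.35 with scaling by array medians, where the median of all probes was itself −0.30.

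The interaction asks whether the mutant collagen had a different effect without XBP1 than with it. For Asns the interaction was 0.09 ± 0.46 on ILMN_2643513 (95% interval −0.90 to 1.08) and 0.06 ± 0.34 on ILMN_3006123 (−0.67 to 0.80). For Slc7a11 on ILMN_2948143 it was −0.02 ± 0.37 (−0.82 to 0.78) as fitted, a size that rests on the unmeasured wildtype level, and for Slc7a3 −0.62 ± 0.53 (−1.77 to 0.53). Gpt2 had 0.81 ± 0.35 (0.04 to 1.58, adjusted p = 0.187) and Aldh18a1 0.99 ± 0.47 (−0.04 to 2.02, adjusted p = 0.226), and both turned negative with scaling by array medians (−0.40 and −0.02), as did those of Asns (−1.11 and −1.12), where the median of all probes was itself −0.73. The interval of Slc7a3 reaches past a 2-fold weaker effect, and those of Gpt2, Aldh18a1 and Asns ILMN_2643513 past a 2-fold stronger one. For Slc38a2 the interaction was 0.66 ± 0.57 on ILMN_1244123 (−0.59 to 1.90) and −0.29 ± 0.38 on ILMN_2955671 (−1.11 to 0.53). Slc7a11 on ILMN_2740738 had −0.39 ± 0.295 (−1.04 to 0.25). Each of these last intervals also reaches past a 2-fold difference.

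The order of the arrays within a genotype was then read over the genes. Taking the brightest probe of each of the 6 genes, wildtype replicate 3 was the lowest wildtype array at 6 of 6 genes and wildtype replicate 2 the highest at 5 of 6. C/X replicate 3 was the lowest C/X array at 5 of 6 genes, all but Slc7a11. ColXN617K replicate 3 was lowest at 3 and highest at 3 of 6, and in Xbp1CartΔEx2 no array was lowest or highest at more than 3 of 6. When C/X replicate 3 and also ColXN617K replicate 3 were left out, an alternative chosen after the data had been seen, 6 probes were higher and 2 lower in C/X against wildtype, 6 higher and 1 lower in ColXN617K against wildtype, and 6 higher and 1 lower in C/X against Xbp1CartΔEx2. Over all probes that setting gave 1533 higher and 949 lower, 1980 higher and 1363 lower, and 1277 higher and 1098 lower calls, more than with all arrays.

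The pattern of Asns over the 12 arrays was compared with that of 7564 other named genes, 1 probe per gene, as a description. The genes most like probe ILMN_2643513 were Herpud1 (Pearson r = 0.991), Znrd2 (0.99), Ghitm (0.984), Neurl1a (0.981) and Qars (0.979). Each had its highest mean in ColXN617K, then C/X, then wildtype, and its lowest in Xbp1CartΔEx2, as Asns had. Herpud1 averaged 13.16 in C/X, 13.67 in ColXN617K, 11.61 in Xbp1CartΔEx2 and 12.31 in wildtype. The 12 points share 4 genotype means, so r mostly reflects the order of genotypes.

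Genes next to the members in amino acid metabolism were counted from lists chosen for their function, with 1 probe, the brightest, for each gene. Of 8 genes of serine, glycine and one-carbon synthesis, 4 were measured, and 3 rose in C/X and 4 in ColXN617K against wildtype. The rise of Shmt2 in ColXN617K (adjusted p = 0.000391) leaves only a bound of at least 1.81-fold, under the fold minimum. It was not above background on any wildtype array. In C/X against Xbp1CartΔEx2 0 of these 4 passed, with a median log2 difference of 0.88. Psat1, an aminotransferase of serine synthesis, rose 2.18 ± 0.35 in C/X and 2.76 ± 0.35 in ColXN617K (adjusted p = 0.000783 and 0.000121). Its difference was 0.83 ± 0.35 in C/X against Xbp1CartΔEx2 (adjusted p = 0.0984). In Xbp1CartΔEx2 against wildtype it was 1.35 ± 0.35 (adjusted p = 0.0373), past the fold minimum but not the p threshold. Aldh1l2, a mitochondrial formyltetrahydrofolate dehydrogenase, was not above background on any wildtype array and was at least 6.74-fold higher in C/X and at least 11.9-fold higher in ColXN617K (adjusted p = 8.52e-05 and 1.90e-05). It was also at least 2.80-fold higher in Xbp1CartΔEx2 (adjusted p = 0.00626), and its interaction passed (adjusted p = 0.00935), though its size rests on the unmeasured wildtype level. No member's interaction passed. The median log2 differences of the 4 genes were 1.63 in C/X and 2.06 in ColXN617K, or 1.63 and 1.96 with genes at such a bound. With scaling by array medians 0 of the 4 passed in C/X and 3 in ColXN617K, and the calls of Aldh1l2 in Xbp1CartΔEx2 and in the interaction were lost with either other normalization.

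Of 25 other genes of amino acid synthesis and breakdown, 8 were measured. In C/X against wildtype 1 rose, which was Ass1, the enzyme that makes argininosuccinate. In ColXN617K 3 rose, Ass1, Bcat2 and Got2. Ass1 and Bcat2 were not above background on any wildtype array, which leaves bounds of at least 1.11-fold for Ass1 in C/X (adjusted p = 0.000751), at least 1.24-fold for Ass1 in ColXN617K (adjusted p = 0.000310) and at least 2.51-fold for Bcat2 in ColXN617K (adjusted p = 2.04e-05). The p values of Ass1 belong to its measured log2 differences, 1.65 in C/X and 1.80 in ColXN617K. Both of its bounds are under the fold minimum. Bcat2, the mitochondrial aminotransferase of branched-chain amino acids, fell by 1.69 ± 0.22 in C/X against ColXN617K (adjusted p = 0.000548). Got2, the mitochondrial aspartate aminotransferase, rose 1.03 ± 0.24 in ColXN617K (adjusted p = 0.00761). The median log2 differences of the 8 genes were 0.43 in C/X and 0.62 in ColXN617K, or 0.08 and 0.50 with genes at such a bound. With scaling by array medians 0 passed in C/X and 1, Bcat2, in ColXN617K, and with cyclic loess Ass1 was not called in C/X and Oat, ornithine aminotransferase, fell in C/X and ColXN617K, where quantile normalization gave −0.96 and −0.90, short of the fold minimum.

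Other plasma membrane carriers were counted as well. Of 27 listed, 12 were measured, and 0 rose in C/X or ColXN617K against wildtype, while 2 fell in C/X and 3 in ColXN617K. With cyclic loess 1 carrier, Slc38a5, rose in ColXN617K, and with scaling by array medians 0 rose and 0 fell in either genotype. In C/X against Xbp1CartΔEx2 1 carrier rose, Slc1a4 (1.24 ± 0.27, adjusted p = 0.00485), and 3 fell, with 0 and 0 when scaled by array medians. Slc38a4 (SNAT4), which like Slc38a2 carries neutral amino acids with sodium, read 7.44, 7.95 and 7.25 in C/X, 9.90, 9.64 and 9.07 in ColXN617K, 9.67, 9.35 and 9.90 in Xbp1CartΔEx2, and 10.74, 10.99 and 10.56 in wildtype. It fell by 3.21 ± 0.27 in C/X (adjusted p = 7.48e-06) and fell by 1.22 ± 0.27 in ColXN617K (adjusted p = 0.00464). It fell by 1.99 ± 0.27 in C/X against ColXN617K (adjusted p = 0.000713). Slc1a1, a carrier of glutamate and cysteine, fell by 1.55 in C/X and fell by 1.12 in ColXN617K (adjusted p = 0.000322 and 0.00231). Slc38a3 (SNAT3), a glutamine carrier, fell by 1.67 in ColXN617K (adjusted p = 0.00590) and differed by −0.06 in C/X (adjusted p = 0.921). Slc7a7, which exports cationic amino acids with its heavy chain, was the 1 carrier of the list to rise in Xbp1CartΔEx2 against wildtype, by at least 2.09-fold since it was not above background on any wildtype array (adjusted p = 0.00107).

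Of 18 genes of ATF4 and the integrated stress response, 16 were measured, and 10 rose in C/X and 9 in ColXN617K against wildtype with 0 lower. With scaling by array medians 4 rose in C/X and 6 in ColXN617K. Fgf21, a hormone of the fasting and stress response, was not above background on any wildtype array and was at least 42.4-fold higher in C/X and at least 62.9-fold higher in ColXN617K (adjusted p = 1.61e-09 and 1.56e-09). Ddit3, which encodes the transcription factor CHOP, rose 2.57 ± 0.26 in C/X and 2.38 ± 0.26 in ColXN617K (adjusted p = 3.44e-05 and 5.21e-05). In Xbp1CartΔEx2 against wildtype 0 of 16 passed, with a median of −0.34, and 0.06 with scaling by array medians, below the 0.34 of all probes in that setting. The Atf4 transcript itself read 12.26, 12.17 and 11.78 in C/X, 12.57, 12.29 and 11.93 in ColXN617K, 11.45, 11.14 and 11.54 in Xbp1CartΔEx2, and 11.56, 11.66 and 11.30 in wildtype. All arrays with mutant collagen X were above all others, but the differences from wildtype were 0.56 in C/X and 0.76 in ColXN617K (adjusted p = 0.0865 and 0.0233), short of both criteria.

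**Figure D4:**
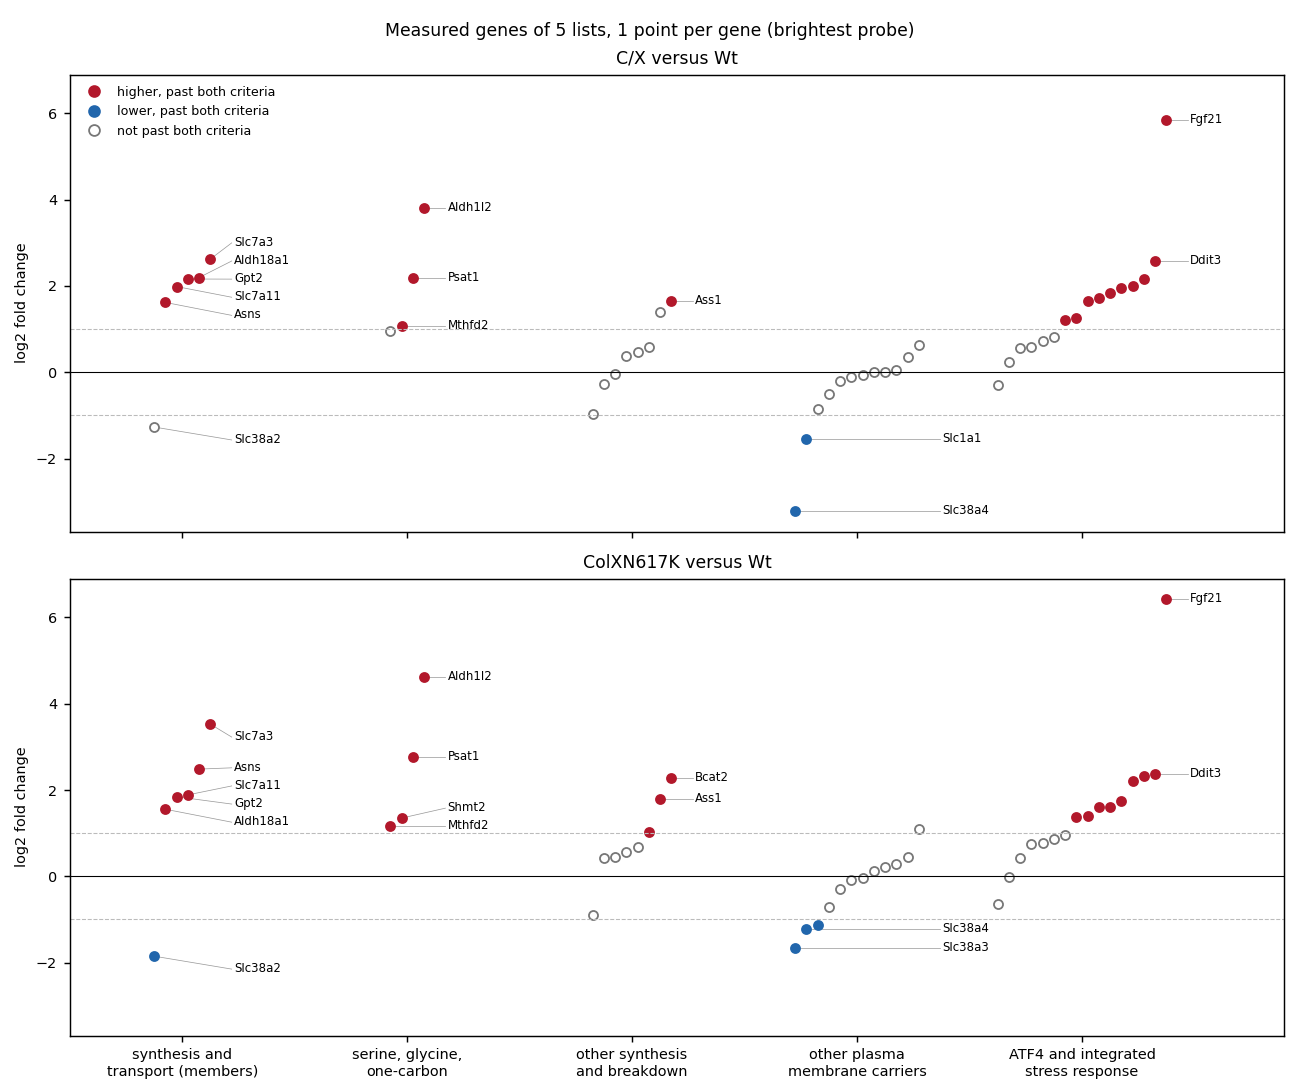
Log2 fold change (y axis) of each measured gene of 5 lists (x axis) in C/X against wildtype (upper panel) and ColXN617K against wildtype (lower panel), 1 point per gene. Filled red points were higher and filled blue points lower past both criteria, dashed lines mark a fold of 2, and genes not above background in wildtype stand at their measured value. No filled red point lies in the list of other plasma membrane carriers.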

How the data were processed

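The files held, for 12 Illumina MouseWG-6 v2 arrays (3 for each of 4 genotypes, grouped by the labels), the authors' GenomeStudio intensity per probe, not normalized, and a detection score that the authors deposited beside each intensity. They also held the authors' normalized log2 values of 11338 probes, which include all 11 probes described. Here intensities were corrected with a normal-exponential model whose background was estimated from the detection scores (offset 16), quantile normalized and log2 transformed, as the methods describe. Where both tables hold a probe, the values differed from the authors' deposited log2 values by at most 0.0339. The authors' removal of badly matching probes was not repeated. The 12023 probes whose score exceeded 0.95 on 3 or more arrays entered the test, and limma (version 3.58.1, R 4.3.3) was fitted on all 12 arrays with 1 mean per genotype, 8 residual degrees of freedom and 4.28 prior degrees of freedom. Adjusted p is by Benjamini and Hochberg, over all tested probes in each of 6 contrasts separately, and differences are given ± SE. The criteria were a 2-fold difference and adjusted p no higher than 0.01. The fit was tested on simulated data. Gene names came from the platform's annotation table, which gave 9866 of the tested probes 1 symbol (7642 genes), and the other 2157 were not named. Lists were counted on the brightest probe of each gene.

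The genes named are every member with each of its probes, the genes of each list with the largest rises and falls past the criteria in C/X or ColXN617K against wildtype, and the 5 named genes outside the lists most correlated with the brightest Asns probe. The carriers Slc7a7, Slc38a5 and Slc1a4, the enzymes Got2, Oat and Shmt2 and the markers were named after their values were seen. The members and lists were chosen with earlier results of these data known. The 3 arrays of a genotype were of 3 mice, per the methods, and their number limits the precision. Alternatives were no background correction, scaling by array medians, cyclic loess, a score above 0.99, no filter, the authors' values, array weights, trended and robust moderation (statmod 1.5.0), only the genotypes compared, a replicate block, other call rules and each array left out.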

Additional observations from a re-analysis of the deposited data

Results flagged for a closer look

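For Gpt2 and Aldh18a1 the difference that went with loss of XBP1 ran in opposite directions with and without mutant collagen X. Every C/X array was above the ColXN617K mean, and every Xbp1CartΔEx2 array was below the wildtype mean. The arrays of the compared genotypes still overlapped in each case, and none of these differences passed the criteria. Gpt2 was 0.3155 higher in C/X than in ColXN617K on the log2 scale and differed by −0.4913 in Xbp1CartΔEx2 against wildtype. Aldh18a1 was 0.6395 higher in C/X than in ColXN617K and differed by −0.3482 in Xbp1CartΔEx2 against wildtype. Neither interaction passed in limma (adjusted p = 0.187 for Gpt2 and 0.226 for Aldh18a1), and with scaling by array medians the differences were −0.35 and 0.05 for Gpt2 and 0.16 and 0.18 for Aldh18a1, where the medians of all probes were themselves −0.30 and 0.34. No group had the 4 or more arrays needed to look for single outlying values.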

How the results depend on the processing

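Scaling by array medians took the number of the 11 probes past the criteria to 3 in C/X against wildtype and 3 in C/X against Xbp1CartΔEx2, and the cause was not tested. With the replicate block by the number in the sample description the count in C/X against wildtype was 4, and with the replicate block by the number in the title the counts were 7, 7 and 6 in C/X against wildtype, ColXN617K against wildtype and C/X against Xbp1CartΔEx2. Same-numbered arrays deviated together (r over 0.1) in 7 of 18 pairs by title and 6 of 14 by description, so neither number pairs the arrays as a whole. All 3 title pairs of C/X with ColXN617K did deviate together (r = 0.366, 0.597 and 0.659). C/X replicate 1, however, deviated more with ColXN617K replicate 2 (r = 0.432) than with its title pair, so this does not establish pairing. In C/X against ColXN617K the title block left the count at 0, with Asns ILMN_2643513 at adjusted p = 0.0328 and under the fold minimum. Leaving out 1 array gave 5 to 8 probes in C/X against wildtype, 5 to 7 in ColXN617K against wildtype, 6 to 8 in C/X against Xbp1CartΔEx2 and 0 in the other 3 comparisons, and those 3 comparisons had 0 in each other alternative run (fitting only the genotypes compared was not run for the interaction). Without background correction the counts in C/X and ColXN617K against wildtype were 5 and 5. Over 1561 probe-level values, 1511 kept their side of the threshold, 39 lost the call and 11 gained it. No called difference changed sign, and 60 that were not called did, 14 of them with scaling by array medians. Without a filter on dim probes, Asns ILMN_2643513 in C/X (adjusted p = 0.0162), Aldh18a1 in ColXN617K (0.0208) and Slc38a2 ILMN_1244123 in ColXN617K (0.0267) no longer passed. A slide block was not run, since neither labels nor files give the slide. Probes that were not above background in wildtype limit Slc7a11 and several list genes to bounds. Leaving out both ColXN617K replicate 3 and C/X replicate 3 and counting the lists under other normalizations were chosen after seeing the data.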
